A study of Mus musculus with 10 samples.

Results

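Serum response factor (SRF) is a transcription factor that binds a short DNA element, the CArG box, and drives genes of the contractile and adhesive actin cytoskeleton. A set of 36 genes was followed here, made up of *Srf* itself, its cofactors and 32 genes of actin filaments, myosin, actin crosslinking and cell adhesion that are known as targets of this factor or work beside its targets. The members were taken by gene symbol from the 23230 features of the deposited expression matrix, and all 36 were found.

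RNAseq had been done on 10 mouse cultures of a glioma model, with 1 library per culture. The 3 AstroEGFR* cultures were astrocytes from the cerebral cortex of C57BL/6 pups at postnatal day 5, lacking *Ink4a/Arf* (*p16/p19*) and carrying a retroviral human EGFRvIII, the constitutively active receptor written EGFR*, and each was a separate astrocyte batch. The 4 PT cultures were glioma propagating cells grown out of primary tumours that such astrocytes had formed in CD1 Nude mice. Batch 1 gave rise to both PT1 and PT4, batch 2 to PT2 and batch 3 to PT3, so that the 4 PT stand for 3 batches. In the 3 AstroEGFR* Zfp423 cultures, the same 3 batches had been infected with a vector for *Zfp423*, a zinc-finger transcription factor that works with SMAD proteins. The vector is lentiviral in the sample labels and retroviral in the methods of the study. All 10 cultures shared the *Ink4a/Arf* loss and EGFR*, no library was of cells without them, and all were below passage 10. AstroEGFR* grew with fetal bovine serum, whereas PT grew without serum, on laminin with EGF and FGF2, and the medium and the passage through a tumour cannot be told apart.

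SRF acts through partners of different kinds. Ternary complex factors such as ELK1 link it to growth factor signalling and immediate early genes, while myocardin and the myocardin-related factors (MRTF-A, encoded by *Mkl1*, and MRTF-B, encoded by *Mkl2*) link it to contractile genes. Monomeric actin holds the MRTFs in the cytoplasm, and when actin filaments are built the MRTFs are freed and enter the nucleus. Serum is the classic stimulus of this route, which gave the factor its name. In the brain the contractile targets are best known from vascular smooth muscle and pericytes, and cultured astrocytes on a stiff surface with serum also make stress fibres.

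The promoters of *Srf* and of 3 members that were lower in PT are shown because they hold the element by which SRF targets are recognised. The sequences are those of RefSeq on build GRCm38.p6, and they cover the 250 bases before the annotated start, 5′ to 3′ on the strand of the gene. Capitals mark CArG boxes and CArG-like boxes.

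Srf, chr17:46556163-46556412, minus strand: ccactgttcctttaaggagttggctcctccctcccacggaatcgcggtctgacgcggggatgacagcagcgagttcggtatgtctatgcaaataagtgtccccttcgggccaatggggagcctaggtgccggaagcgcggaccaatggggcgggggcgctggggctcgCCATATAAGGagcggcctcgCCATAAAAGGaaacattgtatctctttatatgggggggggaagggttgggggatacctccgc

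Acta2, chr19:34255374-34255623, minus strand: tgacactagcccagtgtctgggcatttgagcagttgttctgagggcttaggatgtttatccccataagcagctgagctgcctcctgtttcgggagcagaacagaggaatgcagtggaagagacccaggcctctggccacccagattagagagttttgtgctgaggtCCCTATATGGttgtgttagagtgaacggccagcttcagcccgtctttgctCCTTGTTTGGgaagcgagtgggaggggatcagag

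Cnn2, chr10:79988350-79988599, plus strand: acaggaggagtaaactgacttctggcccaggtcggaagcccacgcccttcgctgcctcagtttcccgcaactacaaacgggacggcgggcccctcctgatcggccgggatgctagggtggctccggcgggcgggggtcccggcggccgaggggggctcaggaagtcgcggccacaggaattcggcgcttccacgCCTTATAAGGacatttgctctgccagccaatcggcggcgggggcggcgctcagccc

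Myl9, chr2:156775214-156775463, plus strand: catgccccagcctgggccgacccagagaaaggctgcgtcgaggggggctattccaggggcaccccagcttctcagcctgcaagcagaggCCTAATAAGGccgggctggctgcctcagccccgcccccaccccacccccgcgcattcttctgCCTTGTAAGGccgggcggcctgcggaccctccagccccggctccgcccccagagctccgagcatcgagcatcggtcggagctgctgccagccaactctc

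A CArG box was searched as CC, then 6 letters that are A or T, then GG, and a CArG-like box as the same with 1 other letter among the 6. The reverse complement of such a box is again one, so a search of 1 strand covers both. In *Srf* the boxes began 82 and 62 bases before the start, and in *Cnn2* the box began 56 bases before it. In *Myl9* a CArG box began 161 and a CArG-like box 99 bases before the start, and *Acta2* held CArG-like boxes at 84 and 34 bases. Over windows from 250 bases before to 50 after a start, 30 of the 36 members had a promoter in the RefSeq table, 38 promoters in all. An exact box was found in 4 of the 38 (10.5%), those of *Srf*, *Cnn2*, *Myl9* and *Vcl*, where 1.63% of all 32851 promoters held one. A CArG-like box was found in 5 of the 38 (13.2%), those of *Mkl1*, *Acta2*, *Myl9*, *Flnc* and *Lpp*, against 8.5% of all promoters. *Actg2*, *Tagln*, *Myocd*, *Myh11*, *Tln2* and *Pxn* had no promoter in the table. A match describes the letters of the window and is not a site of binding, which was not measured in the values used here.

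The authors deposited FPKM, in which the fragments of a gene are divided by its length and by the size of the library. FPKM hold no counts, which leaves the depth of a library and the counting error of a value unknown. The 1st percentile of the values above 0 lay at 0.0384 FPKM in AstroEGFR*3 and 0.0299 FPKM in PT3, against 0.0042 to 0.00712 FPKM in the other 8 libraries (both libraries are of batch 3). Small non-coding RNA and histone features held 0.963 to 34.4% of the FPKM in AstroEGFR* and PT, with AstroEGFR* and PT of a batch alike, and 35.9 to 54.9% in the 3 AstroEGFR* Zfp423 libraries. *Gapdh*, which all cells use, was listed at 0.0106 to 50.1 FPKM, so a value near 0 does not show that a transcript was absent. In such bulk libraries, fewer cells of a type and less RNA per cell cannot be told apart.

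The first question was whether the SRF targets changed between AstroEGFR* and PT. Smooth muscle α-actin and several proteins of the thin filament fell, while *Srf* and the MRTF genes did not pass the test. Of the 36 members, 32 had a mean FPKM of 1 or more in the 7 libraries and were tested. *Myocd*, *Myh11*, *Mylk* and *Des* were under this limit. *Cnn1*, *Lmod1* and *Actg2* were tested only because of AstroEGFR*, since their mean in PT was below 1 FPKM. On log2(FPKM + 1), 6 members were lower in PT with limma at a Benjamini-Hochberg adjusted p (limma adjusted p in what follows) below 0.05 over all 12261 features tested, and 0 were higher. They were *Tagln*, *Acta2*, *Cnn1*, *Myl9*, *Cnn2* and *Lmod1*. Over all features, 0.922% were called lower.

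The count depended on which libraries entered. Without AstroEGFR*1 only *Tagln* passed, without both libraries of batch 3 *Tagln* and *Cnn1*, and with all 10 libraries in 1 fit *Tagln*, *Acta2* and *Cnn2*. With the astrocyte batch as a block, so that each PT was compared with the AstroEGFR* it came from, 13 members were called lower, where 2.68% of all features were. These held all 6 and also *Actn1*, *Actn4*, *Csrp1*, *Myh10*, *Pdlim7*, *Tpm1* and *Tpm2*. At an unadjusted limma p below 0.05 there were 18 members, all lower, against 7.69% of features. For 19 members every PT library lay below every AstroEGFR* library, against 7.81% of features. In sign 31 of the 32 were lower, and the median log2 fold change was -1.44, where that of all features was 0.03.

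**Figure D1:**
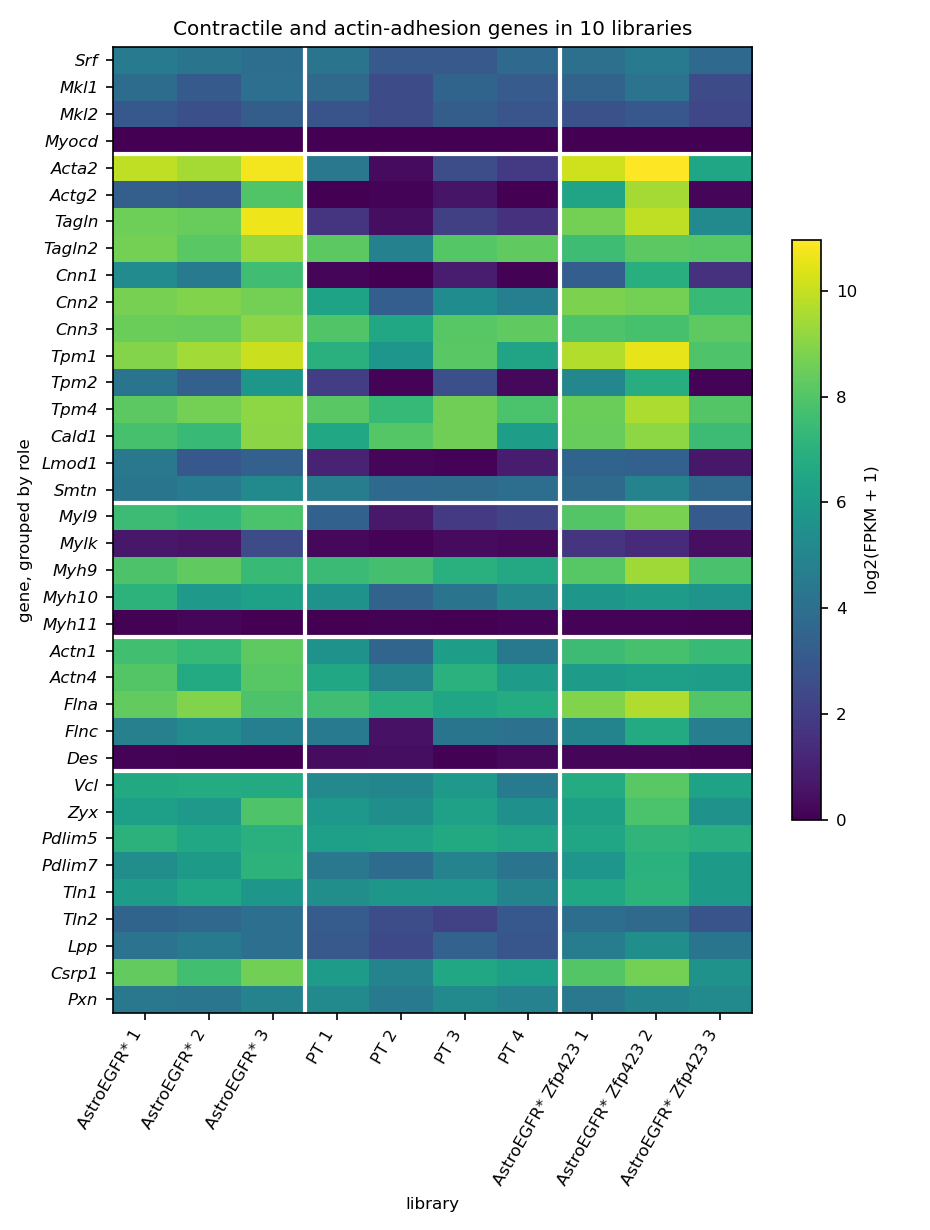
Level of each of the 36 members (rows, grouped by role, white lines between roles) in each of the 10 libraries (columns, white lines between groups) as log2(FPKM + 1), from dark at 0 to yellow at the highest level. *Acta2*, *Tagln*, *Cnn1*, *Myl9* and *Lmod1* are darker in the 4 PT columns than in the 3 AstroEGFR* columns, and *Myocd*, *Myh11* and *Des* are dark in all 10.

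*Srf* had 22.3, 17.7 and 14.4 FPKM in AstroEGFR*1 to AstroEGFR*3. The PT values, in the order of their numbers, were 17.4, 7.27, 7.42 and 12.5 FPKM. PT1 lay within the AstroEGFR* range and the other 3 PT below it. The difference of *Srf* between the groups, -0.72 on the log2 scale (SE 0.35), missed the threshold (limma adjusted p = 0.419), and so did the blocked one (-0.84, SE 0.21, limma adjusted p = 0.086). *Mkl1* was listed at 13.8, 7.50 and 14.9 FPKM in AstroEGFR* and at 12.7, 4.8, 10.6 and 7.91 FPKM in PT, and the groups overlapped (log2 fold change -0.40, SE 0.38, and from -0.69 to -0.16 with 1 library left out, without AstroEGFR*2 and without PT2). *Mkl2* was listed at 7.17, 5.30 and 8.43 FPKM and at 6.13, 4.88, 8.48 and 6.47 FPKM, which overlapped almost wholly (-0.09, SE 0.27). The limma adjusted p was 0.716 for *Mkl1* and 0.930 for *Mkl2*. *Myocd*, the cofactor of cardiac and smooth muscle, was listed at 0.00456, 0 and 0 FPKM in AstroEGFR* and at 0 in all 4 PT. Its highest value in the study was 0.0122 FPKM, in AstroEGFR*3 Zfp423. Of the cofactor genes, *Mkl1* and *Mkl2* were thus the ones listed above 1 FPKM. Of *Srf*, *Mkl1* and *Mkl2*, 0 passed, where 0.922% of all features were called lower.

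Of the 13 smooth muscle actins and thin-filament proteins, all 13 were tested, 5 were called lower (0.922% of all features were) and the median log2 fold change was -3.04. *Acta2* encodes smooth muscle α-actin, the actin of stress fibres in contractile cells. It stood at 976, 725 and 1730 FPKM in the 3 AstroEGFR* and at 19.9, 0.239, 4.95 and 2.69 FPKM in the 4 PT, each in the order of their numbers. The lowest AstroEGFR* library was far above the highest PT, PT1, and the medians differed by a factor of 256. Mean log2(FPKM + 1) was 10.06 ± 0.64 (SD, n = 3) against 2.29 ± 1.69 (SD, n = 4). The difference was -7.78 (SE 0.86), with a limma adjusted p = 0.0109. Without AstroEGFR*1 or without batch 3 it did not pass, and the highest adjusted p over the alternatives, without batch 3, was 0.102 (limma).

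*Tagln* encodes transgelin (SM22α), an actin-binding protein of smooth muscle and a standard reporter of SRF activity. It was listed at 376, 345 and 1629 FPKM in AstroEGFR* and at 2.18, 0.333, 3.20 and 1.96 FPKM in PT. The groups stood apart, AstroEGFR*3 being the highest library and PT2 the lowest. The difference of *Tagln* on the log2 scale was -7.79 (SE 0.62), with a limma adjusted p = 0.00471, and it passed under all 16 alternatives, with adjusted p from 0.00259 to 0.0463. *Cnn1*, calponin of smooth muscle, was listed at 38.1, 22.5 and 194 FPKM in AstroEGFR* and at 0.146, 0.0289, 0.782 and 0.0372 FPKM in PT. All PT values were below 1 FPKM, and the log2 fold change was -5.54 (SE 0.68, limma adjusted p = 0.0136, and 0.0728 without AstroEGFR*1). With all 10 libraries in 1 fit *Cnn1* did not pass either.

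*Cnn2*, the calponin of non-muscle cells, was the steadiest of the called members among the astrocytes. It was listed at 423, 469 and 406 FPKM in AstroEGFR* and at 82.2, 8.66, 39.4 and 25.6 FPKM in PT, with PT1 again the highest of its group. For *Cnn2* the difference was -3.83 (SE 0.65), with a limma adjusted p = 0.0413, and 8 of 16 alternatives kept it below 0.05 (0.028 to 0.193 over all of them). *Lmod1*, leiomodin, which nucleates actin filaments in smooth muscle, was listed at 19.8, 7.18 and 9.29 FPKM in AstroEGFR* and at 1.12, 0.121, 0.062 and 0.808 FPKM in PT. The groups did not overlap. For *Lmod1* the difference was -3.04 (SE 0.44), with a limma adjusted p = 0.0257, which passed under 6 of 16 alternatives (0.0099 to 0.139). *Cnn2* and *Lmod1* were thus the calls nearest to the threshold.

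*Actg2*, smooth muscle γ-actin, was uneven among the astrocytes, at 9.11 and 7.66 FPKM in AstroEGFR*1 and AstroEGFR*2 and 255 FPKM in AstroEGFR*3. In PT it was listed at 0.00958, 0.0758, 0.525 and 0.0294 FPKM, below all 3 AstroEGFR*. Its difference of -4.62 on the log2 scale (SE 1.11) missed the threshold (limma adjusted p = 0.111) and passed it without AstroEGFR*3, where it was smaller (-3.03, limma adjusted p = 0.0407). The actin genes code for nearly identical proteins. How fragments shared between *Acta2*, *Actg2* and the other actins were assigned is not given in the sources used here. The split between these genes is thus uncertain.

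Among tropomyosins, which lie along the actin filament, *Tpm1* had a log2 fold change of -2.67 (SE 0.58, limma adjusted p = 0.0864) and *Tpm2* one of -3.20 (SE 0.81, limma adjusted p = 0.129). For both every PT was below every AstroEGFR*, and both passed with the batch as a block (0.032 and 0.0321, limma adjusted p). *Tpm4*, a tropomyosin of non-muscle cells, was at 297 to 549 FPKM in AstroEGFR* and 163 to 384 FPKM in PT, and the groups overlapped (log2 fold change -0.67). Relatives of the called genes that are widely expressed were still listed above 20 FPKM in every PT. *Tagln2* was listed at 281 to 623 FPKM in AstroEGFR* and at 27.2 to 311 FPKM in PT, and *Cnn3* at 337 to 537 and at 95.5 to 308 FPKM. Neither *Tagln2* (-1.35, SE 0.87) nor *Cnn3* (-0.92, SE 0.46) passed, and without PT2 the differences were -0.51 and -0.53. Caldesmon, *Cald1*, which holds back myosin on the thin filament, was at 169 to 529 and 70.5 to 382 FPKM, and smoothelin, *Smtn*, at 18.0 to 37.1 and 12.3 to 24.2 FPKM, and the groups overlapped for both.

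**Figure D2:**
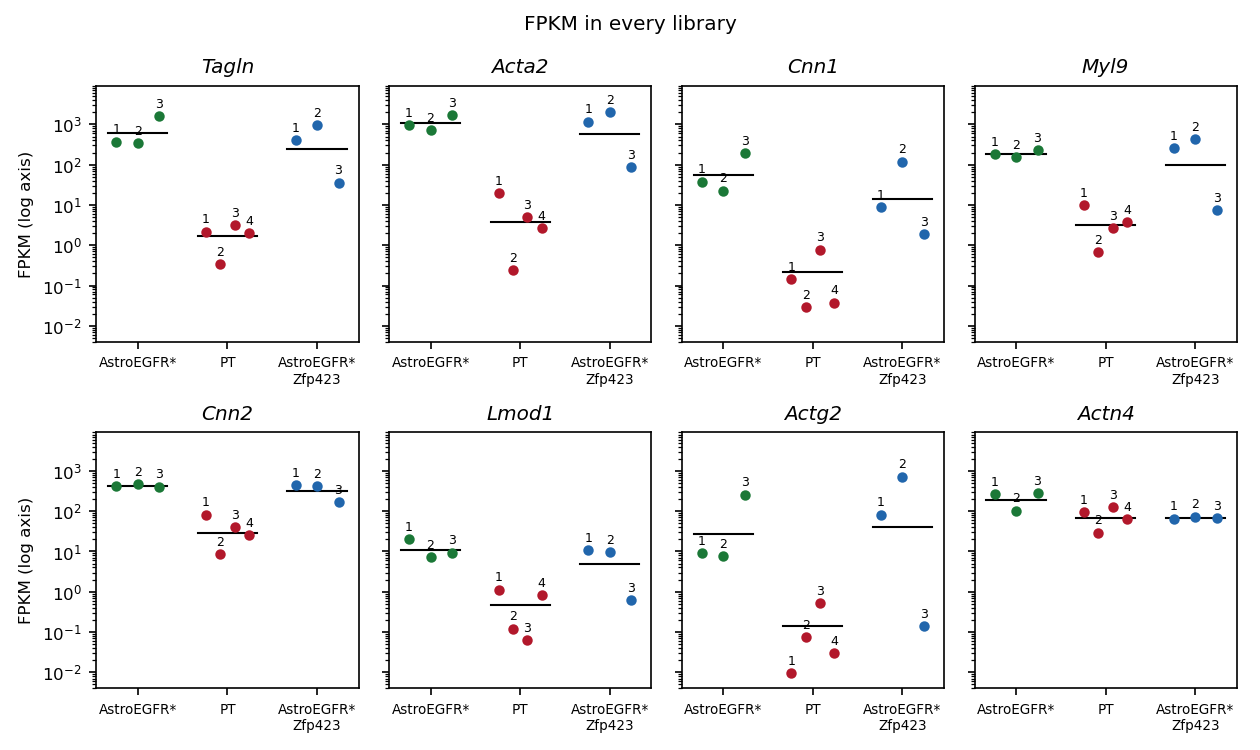
FPKM on a log axis of 8 members in every library, 1 panel a gene, with the number of the library over each point and a bar at the mean of log2(FPKM + 1), turned back to FPKM. In 7 of the 8 the 4 PT points lie below all AstroEGFR* points, while in *Actn4* they overlap, and AstroEGFR*3 Zfp423 is the lowest of its group in 7.

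The myosin group had 5 members, of which 3 were tested and 1 was called, where 0.922% of all features were called lower. *Myl9*, the regulatory light chain whose phosphorylation starts contraction, was listed at 181, 153 and 228 FPKM in AstroEGFR* and at 9.75, 0.663, 2.66 and 3.74 FPKM in PT. The astrocyte libraries were close to each other and PT1 was the highest PT. Mean log2(FPKM + 1) was 7.54 ± 0.29 (SD, n = 3) against 2.07 ± 1.11 (SD, n = 4). The difference of -5.47 (SE 0.57) had a limma adjusted p = 0.0103, which was 0.101 without batch 3. It did not pass without AstroEGFR*1 or with all 10 libraries in 1 fit. The heavy chains of non-muscle myosin behaved unlike each other in size. *Myh10* (myosin IIB) was at 59.5 to 134 FPKM in AstroEGFR* and 10.1 to 47.4 FPKM in PT (log2 fold change -1.81, SE 0.54, limma adjusted p = 0.186, with the block 0.0181), whereas *Myh9* (myosin IIA) was at 169 to 314 and 98.2 to 214 FPKM, with overlap (-0.67, SE 0.37). The smooth muscle heavy chain *Myh11* stayed at or below 0.0974 FPKM in all 10 libraries, and its kinase partner *Mylk* reached 4.74 FPKM in AstroEGFR*3 and at most 0.617 FPKM in the other AstroEGFR* and in PT, with 2.26, 1.56 and 0.384 FPKM in the AstroEGFR* Zfp423 cultures. So *Acta2* and *Myl9* were listed at over 100 FPKM in AstroEGFR* while the smooth muscle heavy chain was listed near 0.

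Crosslinkers tie actin filaments into bundles and networks, and 0 of the 4 tested were called without the block, where 0.922% of all features were called lower. *Actn1* (α-actinin 1) was at 162 to 302 FPKM in AstroEGFR* and 11 to 67.5 FPKM in PT, with no overlap (log2 fold change -2.82, SE 0.60, limma adjusted p = 0.0802, with the block 0.032). *Actn4* was listed at 260, 103 and 276 FPKM in AstroEGFR* and at 94.2, 29.4, 128 and 63.2 FPKM in PT, so that PT3 lay above AstroEGFR*2 (-1.48, SE 0.57, limma adjusted p = 0.311, with the block 0.0347). Filamin A (*Flna*) was at 235 to 466 and 88.5 to 196 FPKM (-1.40, SE 0.37, limma adjusted p = 0.143). *Flnc*, filamin C, was at 25.2 to 38.2 FPKM in AstroEGFR*, at 16.5 to 21.3 FPKM in PT1, PT3 and PT4 and at 0.469 FPKM in PT2. Desmin (*Des*), the intermediate filament of muscle, was at or below 0.31 FPKM in all 10 libraries.

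Adhesion and LIM-domain proteins join filaments to integrins, and here the shifts were smaller, with 9 tested, 0 called (0.922% of all features were called lower), 5 without overlap (7.81% of all features) and a median log2 fold change of -0.99. *Csrp1*, a LIM protein on actin bundles, had the largest one, from 200 to 392 FPKM in AstroEGFR* to 29.2 to 93.8 FPKM in PT (-2.27, SE 0.44, limma adjusted p = 0.0624, with the block 0.011). *Pdlim7* (-1.81, SE 0.43, limma adjusted p = 0.109, with the block 0.0349), *Vcl* (vinculin, -1.55, SE 0.33, limma adjusted p = 0.0818), *Lpp* (-1.28, SE 0.30) and *Tln2* (-0.99, SE 0.31) did not overlap between the groups either. *Tln1* (talin 1, -0.63), *Zyx* (zyxin, -0.89) and *Pdlim5* (-0.48) had smaller differences, that of *Zyx* being -0.25 without AstroEGFR*3. *Pxn*, the adhesion scaffold paxillin, was the single tested member with a higher mean in PT (0.42, SE 0.29, limma adjusted p = 0.592), at 18.5 to 29.0 FPKM in AstroEGFR* and 21.0 to 36.9 FPKM in PT.

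**Figure D3:**
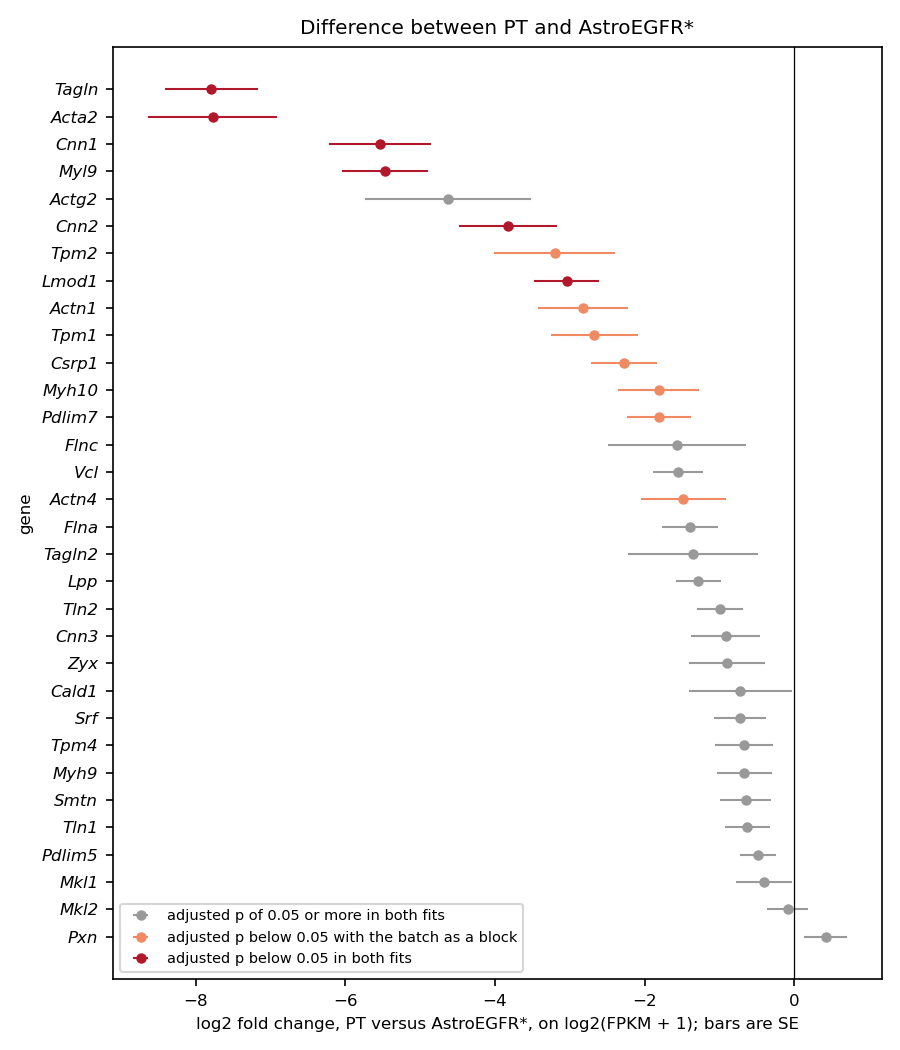
Log2 fold change of PT over AstroEGFR* on log2(FPKM + 1) for the 32 members tested, with bars of 1 SE. The 6 dark red members passed in both fits, the 7 orange ones with the batch as a block and the grey ones in neither, and 31 of the 32 points lie left of 0.

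Each PT can also be set against the AstroEGFR* of its own batch, as a description. The median difference over the 32 members was -1.05 for PT1 and -1.99 for PT2, and PT3 (-1.43) and PT4 (-1.41) lay between these, where the median over all features lay between -0.0045 and 0.0509. For 28 of 32 members (87.5%) all 4 PT were below their own AstroEGFR*, against 18.2% of features. The 4 exceptions were *Mkl2*, *Cald1*, *Smtn* and *Pxn*. PT2 was the lowest PT for 23 members (71.9%, against 31.6% of features) and AstroEGFR*3 the highest AstroEGFR* for 21 (65.6%, against 34.8%). For *Acta2* the difference ran from -9.19 on the log2 scale for PT2 to -5.54 for PT1.

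Within a library, the contractile form of a protein was set against its widely expressed relative, again with no test. *Tagln* minus *Tagln2* on log2(FPKM + 1) was between -0.11 and 1.39 in AstroEGFR* and between -6.72 and -4.40 in PT. *Myl9* minus *Myl12a*, the light chain of non-muscle cells, went from between -0.57 and -0.15 to between -5.60 and -3.88. *Acta2* minus *Actb* went from between -2.54 and -0.08 to between -9.99 and -6.29. *Tpm1* was above *Tpm4* by 0.72 to 1.00 in AstroEGFR* and was lower than it in all 4 PT (-1.59 to -0.43). These differences do not depend on how libraries are scaled to each other, apart from the added 1, and in each pair the ranges of the 2 groups did not overlap. For the heavy chains *Myh10* and *Myh9* they did.

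Genes that work with the members were taken from 3 lists. Of 16 tested actin isoforms and regulators of actin turnover, 11 were lower and 5 higher in PT and 0 were called, or 1 (*Dstn*) with the batch as a block, where 0.922% and 2.68% of all features were called lower. The largest differences were those of *Dstn* (destrin, -1.08, limma adjusted p = 0.137) and *Capzb* (-1.02, limma adjusted p = 0.566), a capping protein. Of 5 tested SRF partners, the ELK factors, *Gata6* and *Hopx*, 0 were called, and *Hopx* (1.61, SE 0.85) and *Elk1* (0.33, SE 0.26) differed most.

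Among 25 tested partners at focal adhesions, 21 were lower and 3 were called lower (*Fhl2*, *Sorbs2* and *Fblim1*), where 0.922% of all features were. The count rose to 7 with the batch as a block, where 2.68% of all features were called lower. It fell to 0 with all 10 libraries in 1 fit, with batch 3 left out and without AstroEGFR*1, and to 1 with no filter on low values and without AstroEGFR*3, PT2, PT3 or PT4. *Fhl2* is a LIM protein that binds SRF and integrins, and was listed at 21.4, 20.1 and 46.0 FPKM in AstroEGFR* and at 0.925, 0.113, 0.600 and 0.178 FPKM in PT (-4.31 on the log2 scale, SE 0.38, limma adjusted p = 0.00638). It was tested only because of AstroEGFR*, its PT values all being below 1 FPKM. So was *Synpo2*, 1 of the 7 called with the block, at 0.0503 to 1.07 FPKM in PT with a mean below 1 FPKM. *Lims2*, 1 of the 21 lower, was another such case. Its mean in PT was below 1 FPKM, though PT4 was listed at 3.52 FPKM. *Sorbs2*, an adaptor at stress fibres, fell by 3.43 on the log2 scale (SE 0.54, limma adjusted p = 0.0309) and *Fblim1* (migfilin) by 2.38 (SE 0.38, limma adjusted p = 0.0326).

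Markers of other cell types moved in part with the members. The 10 pericyte and vascular smooth muscle markers summed to 58.8 to 215 FPKM in AstroEGFR* and 9.88 to 122.8 FPKM in PT, and *Pdgfrb* was called lower in PT (42.1, 27.9 and 65.7 FPKM against 1.91, 0.182, 4.94 and 0.849 FPKM). Of the 6 tested, 4 were lower in PT and 1 was called, where 0.922% of all features were called lower. *Anpep*, 1 of the 4, was tested only because of AstroEGFR*, its mean in PT being below 1 FPKM. *Mcam* reached 47.2 FPKM and *Notch3* 8.78 FPKM in PT4, and *Cspg4* was listed at 3.90, 1.12 and 7.08 FPKM in AstroEGFR* and at 18.0, 1.41, 0.0295 and 64.6 FPKM in PT. The 10 fibroblast and meningeal markers summed to 344, 518 and 5591 FPKM in AstroEGFR*1 to AstroEGFR*3 and to 59.5 to 608 FPKM in PT. On log2(FPKM + 1) the 9 tested had lower means in PT and 0 were called, where 0.922% of all features were called lower. *Pdgfra* was listed at 1.48, 3.36 and 5.67 FPKM in AstroEGFR* and at 1.25, 0.394, 0.218 and 41.9 FPKM in PT, so its mean in FPKM was higher in PT. *Dcn* and *Lum* were tested only because of AstroEGFR*, their mean in PT being below 1 FPKM. *Col1a1* and *Col1a2* were the most abundant. AstroEGFR*3 was thus high both in these markers and in *Tagln*, *Cnn1* and *Actg2*. The part of such cells in the fall of the contractile genes was not tested.

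The remaining lists had other patterns. The 10 astrocyte markers, led by *Gja1* and *Gfap*, summed to 627 to 1161 FPKM in AstroEGFR* and 398 to 1053 FPKM in PT. All 10 were tested and 0 were called, where 0.922% of all features were called lower and 39 of 12261 higher. Oligodendrocyte lineage markers, led by *Olig1* and *Olig2*, reached 98.1 to 310 and 179 to 1838 FPKM. Of the 6 tested among them, 1 was called higher in PT, where 39 of all 12261 features were. This was *Cspg5*, a chondroitin sulphate proteoglycan, with 4.55, 4.17 and 1.78 FPKM in AstroEGFR* against 47.5, 49.9, 23.4 and 160 FPKM in PT. Neuronal markers, led by *Tubb3* and *Stmn2*, reached 28.5 to 57.4 and 17.7 to 102 FPKM. Endothelial markers (*Flt1*, *Cdh5*) stayed at 0.426 to 10.5 FPKM and skeletal and cardiac muscle markers (*Tnnt2*, *Tnnt3*) at 0.0603 to 1.91 FPKM over these 7 libraries. Microglial markers (*C1qa*, *C1qb*) were low, with sums of 1.98 to 11.3 FPKM in AstroEGFR* and 0.128 to 0.593 FPKM in PT, so that every PT lay below every AstroEGFR*. No microglial marker reached the mean of 1 FPKM needed for a test, and their part in the fall of the contractile genes was not tested. Of all marker lists, 0 genes were at 0 in all 10 libraries.

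The second question was whether the *Zfp423* vector changed these genes. No member passed, and the batches differed in direction, with most contractile genes higher in batch 2 and lower in batch 3. *Zfp423* itself was listed at 4.30, 3.25 and 3.48 FPKM in AstroEGFR* and at 15.7, 9.73 and 105 FPKM in the infected cultures, higher in all 3 batches and highest in batch 3. With the batch as a block, 33 members were tested, *Mylk* now included, and 0 passed (limma, Benjamini-Hochberg adjusted p from 0.627 to 0.999), as 0.0% of the 12366 features did. At an unadjusted limma p below 0.05 there was 1 member, *Actn4*, against 7.38% of features. The AstroEGFR* libraries are those of the comparison with PT, so the comparisons share them.

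*Actn4* was listed at 64.7, 72.6 and 67.0 FPKM with the vector, below the AstroEGFR* of each batch. The fitted difference was -1.50 on the log2 scale (SE 0.42), with a limma adjusted p = 0.627. *Cnn3* was the other member lower in all 3 batches, and *Myh9*, *Flna*, *Tln1* and *Lpp* were higher in all 3. The largest fitted difference was that of *Cnn1*, listed at 8.72, 119 and 1.92 FPKM with the vector, lower than its own AstroEGFR* in batches 1 and 3 and higher in batch 2 (-1.91, SE 1.69). *Tagln* was listed at 407, 960 and 35.5 FPKM (-1.30, SE 1.50) and *Lmod1* at 10.6, 9.53 and 0.622 FPKM (-1.05, SE 0.65). For *Cnn1*, *Tagln* and *Lmod1* the spread between batches was of the size of the difference or larger.

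In batch 1 most members lay near their level in AstroEGFR*1, with a median difference of 0.07. There 2 members were higher by at least 1 on the log2 scale, against 11.2% of features, and 4 lower, against 7.83%. *Actg2* (3.04) and *Mylk* (1.01) were higher, and *Cnn1*, *Actn4*, *Myh10* and *Tagln2* lower. In batch 2, 15 members were higher by at least 1, against 12.3% of features, and 0 lower, against 12.0%, with a median of 0.90. In batch 3, 0 were higher, against 9.7%, and 20 lower, against 16.5%, with a median of -1.15. With 1 library on each side these are differences between libraries, without a test. No library was labelled as infected with an empty vector.

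The same genes differed in opposite directions in batches 2 and 3, whose AstroEGFR* libraries started from unlike levels. Of the 32 members tested in PT, AstroEGFR*2 was the lowest AstroEGFR* for 19 (59.4%, against 32.1% of features). AstroEGFR*3 was the highest for 21 (65.6%, against 34.8%). *Actg2*, for example, started at 7.66 FPKM in AstroEGFR*2 and 255 FPKM in AstroEGFR*3. The part of the starting level in these differences was not tested. *Acta2*, *Actg2*, *Tagln*, *Cnn1*, *Tpm1*, *Tpm2*, *Cald1*, *Myl9*, *Zyx*, *Pdlim7*, *Csrp1* and *Mkl1* were at least 1 higher on the log2 scale in batch 2 and at least 1 lower in batch 3, 12 of 33 members (36.4%) against 5.14% of all features. *Acta2* was listed at 1994 FPKM in AstroEGFR*2 Zfp423 and at 87.5 FPKM in AstroEGFR*3 Zfp423, and in batch 1 at 1168 FPKM. *Actg2* showed the widest range, from 82.3 and 723 FPKM in batches 1 and 2 to 0.137 FPKM in batch 3. *Myl9* was listed at 257, 434 and 7.54 FPKM and *Cnn2* at 440, 412 and 167 FPKM. *Srf* was at 15.7, 22.9 and 12.5 FPKM, *Mkl1* at 10.2, 16.9 and 4.82 FPKM and *Mkl2* at 5.62, 6.79 and 3.99 FPKM, so that batch 3 was lowest for all 3, while *Myocd* was listed at 0.0115, 0 and 0.0122 FPKM.

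**Figure D4:**
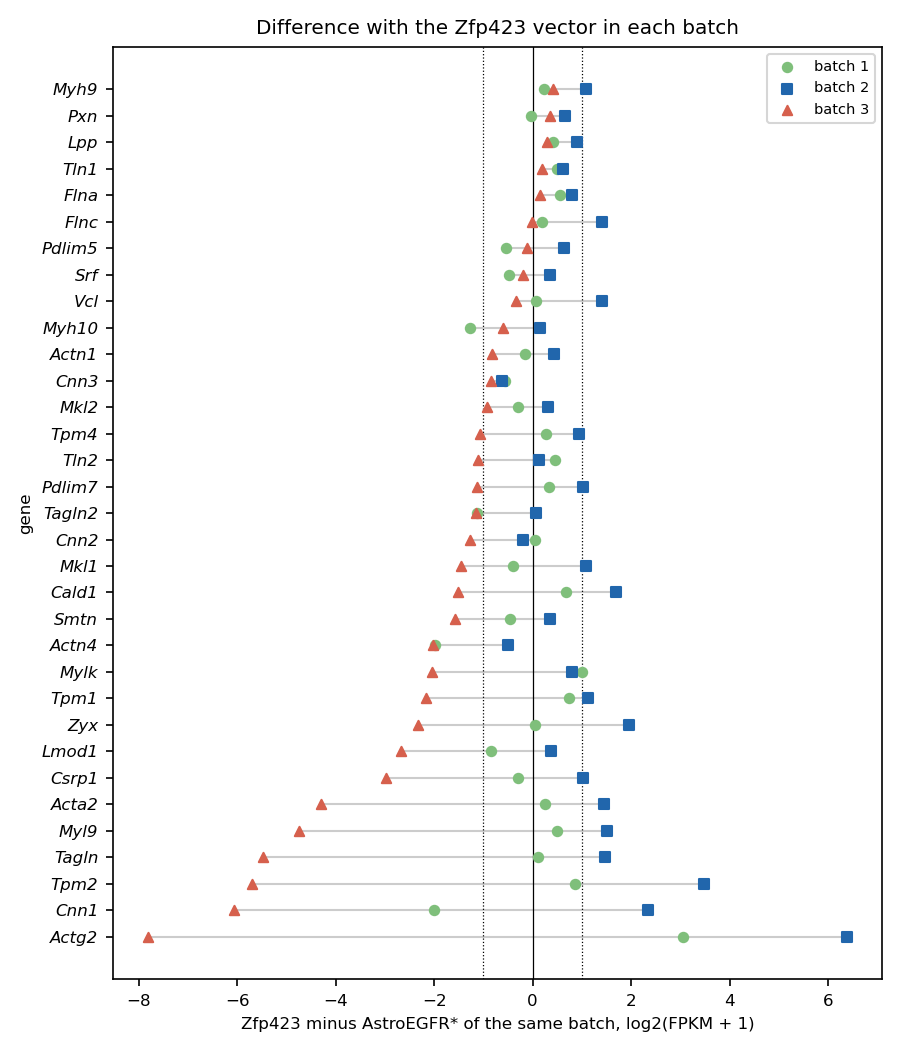
Difference between the AstroEGFR* Zfp423 and the AstroEGFR* library of the same batch on log2(FPKM + 1) for the 33 members tested, with dotted lines at 1 and -1 and each batch as 1 symbol. Batch 2 lies to the right for 30 members and batch 3 to the left for 28, and *Actg2* spans from -7.81 to 6.39.

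For the 19 tested members whose PT and AstroEGFR* libraries did not overlap, the infected cultures were placed on the same scale. AstroEGFR*1 Zfp423 was at or above the lowest AstroEGFR* for 16 of the 19 and AstroEGFR*2 Zfp423 for 18, where 73.8% and 54.2% of the 958 tested features with every PT below every AstroEGFR* were. AstroEGFR*3 Zfp423 was so for 4, lay between the groups for 7 and was at or below the highest PT for 8, among them *Myl9*, *Lmod1*, *Actg2*, *Tpm1* and *Tpm2*. Of the same 958 features 31.0%, 25.6% and 43.4% were so placed in this library, so that the share of members at or below PT was near that of these features. The library was still above all PT for *Acta2*, *Tagln*, *Cnn1* and *Cnn2*.

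The infected libraries also differed in markers. Fibroblast and meningeal markers summed to 4599, 6515 and 240 FPKM, with a median difference from AstroEGFR* of 1.95, 1.47 and -5.08 on the log2 scale in batches 1, 2 and 3. Microglial markers summed to 1473, 842 and 0.0779 FPKM, with *C1qa* at 433 and 291 FPKM in batches 1 and 2 and at 0 in batch 3. Pericyte and vascular smooth muscle markers summed to 131, 182 and 20.8 FPKM, and astrocyte markers to 346, 84.5 and 1042 FPKM, with median differences from AstroEGFR* of -1.30, -2.74 and -0.44. By these sums, the infected culture of batch 3 was the lowest in fibroblast and pericyte markers and the highest in astrocyte markers. Its *Zfp423* was also the highest. Its astrocyte sum was below the 1161 FPKM of AstroEGFR*3, but *Aldh1l1*, *Glul*, *Aldoc* and *Gja1* were higher than there. The part of any of these in the others was not tested.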

How the data were processed

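RNA of 10 cultures had been sequenced, and the authors deposited 1 matrix of FPKM for 23230 features. The submitters' processing notes name TopHat 1.3, Cuffnorm and the build mm9. The labels name a TruSeq RNA kit, the methods of the study removal of ribosomal RNA and stranded libraries. Groups and batch numbers came from the sample titles, and the batch of each PT from the study. The members, the gene lists and the tests were chosen with earlier results of these data known.

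FPKM as deposited were tested as log2(FPKM + 1) with limma 3.58.1 in R 4.3.3 (linear model, empirical Bayes with trend) over features whose mean FPKM in the fitted libraries was 1 or more, with Benjamini-Hochberg adjustment over all of them and a threshold of 0.05. This scale understates changes of low genes. Zfp423 cultures were fitted with the batch as a block. PT were fitted without it, which counts PT1 and PT4 of batch 1 as separate cultures, and with it as an alternative. With PT1 and PT4 averaged, 4 members were called lower without the block. Deviations from the group means correlated between AstroEGFR* and PT of a batch at 0.346, 0.422, 0.426 and 0.499, so the batches pair these samples. Between AstroEGFR* and AstroEGFR* Zfp423 of a batch they correlated at 0.241, -0.111 and -0.262, which shows no pairing in batches 2 and 3. Across batches, AstroEGFR*3 correlated with AstroEGFR*2 Zfp423 at 0.308 and AstroEGFR*2 with AstroEGFR*3 Zfp423 at 0.224, above the pairs of their own batches. The remaining pairs of AstroEGFR* and AstroEGFR* Zfp423 across batches lay between -0.232 and 0.0252. The cause of this pattern was not tested. The block of the Zfp423 fit rests on the numbers in the titles. The code was tested on simulated data. p-values measure the spread between cultures, and those of the PT fit without the block leave out the pairing of AstroEGFR* and PT.

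Values in every library are given for *Srf* and its cofactors, for members past the threshold in PT, for the 6 largest changes in PT and the 4 largest with Zfp423. Alternatives were a pseudocount of 0.1, no filter, other scalings, no trend, all libraries in 1 fit, PT1 and PT4 averaged, batch 3 left out and each library left out. *Hop* and *Map2* of the lists had no feature of that name, and 1 further list of pathway genes is not reported here. RefSeq promoters are on GRCm38.p6 and were not joined to coordinates of mm9. Tables were made with Python 3.11.15, pandas 2.3.3 and numpy 2.4.6, and figures with matplotlib 3.10.9.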

Additional observations from a re-analysis of the deposited data

Results flagged for a closer look

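For the 32 members tested between PT and AstroEGFR*, the gap of the highest or lowest of the 4 PT libraries to its neighbour was divided by the range of the group on log2(FPKM + 1). In 4 members this passed Dixon's 95% critical value for a group of 4, and chance marks about 1 in 20 groups. PT2 was far below the other PT for *Tagln2* (0.945), *Flnc* (0.912) and *Cnn3* (0.843). PT3 was far above them for *Actg2* (0.846), where all 4 PT were below 1 FPKM.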

How the results depend on the processing

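The number of members called lower in PT moved from 6 to 13 with the astrocyte batch as a replicate block, a paired comparison, to 3 with all 10 libraries in 1 fit and to 2 without batch 3. Leaving out 1 library gave from 1, without AstroEGFR*1, to 6, and the other alternatives gave 4 to 6. AstroEGFR*3 and PT3 of batch 3 are also the libraries of the coarsest low values. Over single members and alternatives in PT, 475 values kept direction and side of the threshold, 25 lost the call, 10 gained it and 2 changed sign, both of *Mkl2*, whose log2 fold change ran from -0.25 to 0.0414 over the fits without 1 library (0.0414 without AstroEGFR*3, 0.0191 without PT2). For *Zfp423*, 0 members passed in any alternative, including the fit with no replicate block. Without 1 batch, the fitted difference of *Cnn1* ran from -4.04 to 0.17 and that of *Tagln* from -2.68 to 0.80 (positive without batch 3), and that of *Lmod1* from -1.75 to -0.24. The cause of these changes was not tested. Depth, which FPKM do not give, limits the folds of members listed below 1 FPKM in PT.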
